A study of Mus musculus with 18 samples.

Results

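Liver X receptors (LXRs), the genes through which macrophages hand cholesterol out of the cell and a set of lipid-handling partners were described in sorted synovial macrophages of mice. The 10 genes were chosen by symbol: *Nr1h3* and *Nr1h2*, which encode LXRα and LXRβ; the lipid transporters *Abca1*, *Abcg1* and *Abca9*; the lipoprotein genes *Apoe*, *Apoc1* and *Pltp*; *Lpl*, which encodes lipoprotein lipase; and *Mylip*, which encodes a ubiquitin ligase. They were 10 of 24421 gene symbols listed. Some of them had been chosen because their counts change after immune complexes (IC), so their values with and without IC are given as a description, without a test.

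Bulk RNA was sequenced from 3 sorted macrophage subsets of the synovium of adult wild-type C57BL/6 mice, either untreated or 8 h after an intravenous injection of IC made of ovalbumin and rabbit antibodies to it. The subsets were LYVE1+CX3CR1+ macrophages, MHCII+CD11c- macrophages (labelled IAIE) and MHCII+CD11c+ macrophages (labelled CD11c), with 3 libraries for each subset and treatment, 18 in all. The study pooled mice within each library, and a group given ovalbumin or antibody alone was not analysed here. Bulk RNA cannot tell fewer cells of a type from less RNA per cell.

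LXRs are nuclear receptors that bind oxysterols, oxidized forms of cholesterol, and pair with retinoid X receptors on DNA. When cholesterol accumulates in a macrophage they switch on the ABC transporters that pass it to lipoproteins outside the cell, together with apolipoproteins, lipoprotein-remodelling enzymes and *Mylip*, whose product limits the uptake of lipoproteins. Macrophages take in much cholesterol with engulfed cells, and LXRs are also known to restrain inflammatory genes.

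Library totals lay between 245903 and 2172358 counts and differed by subset. Untreated and with IC, the group medians were 882944 and 381217 counts in MHCII+CD11c- and 1981823 and 1306815 in MHCII+CD11c+ macrophages. In LYVE1+CX3CR1+ macrophages they were 1543289 and 1914406 counts. Comparisons that use MHCII+CD11c- libraries thus rest on fewer counts, and the part of depth in the shares of genes called or not overlapping was not tested. The smallest library was replicate 2 of MHCII+CD11c- macrophages with IC, in which 1 count stood for 3.77 CPM. CPM are counts relative to the library total as scaled by edgeR's TMM factors, the level used throughout. Where the 3 libraries of a group are listed, they run from replicate 1 to 3, so this library comes second in its group. Summed levels of 10 macrophage markers lay between 12523 CPM, in the smallest library, and 26382 CPM in all 18 libraries. The other MHCII+CD11c- libraries with IC had 18779 and 18751 CPM, and none of the 10 markers was at 0 in any group. In untreated LYVE1+CX3CR1+ macrophages 2 were called higher and 1 lower than in MHCII+CD11c-, and 6 higher and 1 lower than in MHCII+CD11c+ macrophages. In MHCII+CD11c+ macrophages 3 were lower than in MHCII+CD11c-, and with IC 1 was higher in each subset. Neutrophil markers, 9 genes in these files, summed to between 13.2 and 170 CPM in the LYVE1+CX3CR1+ libraries. In MHCII+CD11c- macrophages the same sum was 775 to 1870 CPM untreated and 1525 to 4255 CPM with IC, and in MHCII+CD11c+ macrophages 20.4 to 592 CPM untreated and 1047 to 2356 CPM with IC. Of the 9 neutrophil markers tested, 9 and 7 were called lower in untreated LYVE1+CX3CR1+ than in MHCII+CD11c- and MHCII+CD11c+ macrophages. With IC, 3 were called higher in MHCII+CD11c+ macrophages and 0 in the other subsets. The part of neutrophils in the results for the MHCII+ subsets was not tested. Markers of 6 monocyte genes summed to between 23.1 and 46.4 CPM in LYVE1+CX3CR1+ libraries and between 615 and 1292 CPM in the MHCII+ libraries. The 1292 CPM were in the smallest library, and the other MHCII+ libraries had at most 904 CPM. All 6 were called lower in untreated LYVE1+CX3CR1+ macrophages than in both MHCII+ subsets. Untreated, 1 was higher in MHCII+CD11c+ than in MHCII+CD11c- macrophages, and with IC 1 was higher in each MHCII+ subset. Schwann cell markers (6 genes, 4 tested) summed to between 608 and 849 CPM in LYVE1+CX3CR1+ and between 224 and 311 CPM in MHCII+CD11c+ libraries. In MHCII+CD11c- libraries they summed to between 207 CPM, in the smallest library, and 584 CPM. Of the 4 tested, 1 and 3 were called higher in untreated LYVE1+CX3CR1+ than in MHCII+CD11c- and MHCII+CD11c+ macrophages. A further 3 calls were lower in MHCII+CD11c+ than in MHCII+CD11c- macrophages and 2 lower with IC in LYVE1+CX3CR1+ macrophages. Untreated LYVE1+CX3CR1+ library 1 had 648 CPM of fibroblast markers, against at most 192 CPM in the others. Untreated MHCII+CD11c+ library 3 had 132 CPM of muscle markers, against at most 52.7 CPM. The sums of 192 and 52.7 CPM were those of the smallest library. The part of these cells in the results was not tested.

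Promoter sequences are shown for 3 members: *Abca1*, whose LXR element is a textbook example, and *Mylip* and *Abca9*, whose IC libraries lay on opposite sides of the untreated ones in every subset. Each run is the 250 bases before an annotated transcript start, 5′ to 3′ on the gene's strand, from RefSeq (GRCm38.p6). The RefSeq genes of *Abca1* and *Abca9* begin further upstream, at 53159988 and 110168274. Part of these windows, with the marked stretch of *Abca1*, thus lies inside the gene as RefSeq bounds it. Capitals mark a match to a loose form of the LXR element, 2 half-sites spaced by 4 bases.

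Abca1 (chr4:53159896-53160145, minus strand): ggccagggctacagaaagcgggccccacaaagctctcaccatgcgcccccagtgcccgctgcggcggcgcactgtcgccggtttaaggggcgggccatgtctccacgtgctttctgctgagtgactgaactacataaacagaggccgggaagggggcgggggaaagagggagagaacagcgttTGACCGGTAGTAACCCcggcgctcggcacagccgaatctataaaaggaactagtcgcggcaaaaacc

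Mylip (chr13:45389492-45389741, plus strand): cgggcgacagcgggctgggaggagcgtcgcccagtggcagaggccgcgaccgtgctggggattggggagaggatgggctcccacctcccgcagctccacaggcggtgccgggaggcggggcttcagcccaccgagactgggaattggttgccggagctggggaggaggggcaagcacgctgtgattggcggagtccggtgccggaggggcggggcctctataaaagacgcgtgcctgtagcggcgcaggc

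Abca9 (chr11:110168154-110168403, minus strand): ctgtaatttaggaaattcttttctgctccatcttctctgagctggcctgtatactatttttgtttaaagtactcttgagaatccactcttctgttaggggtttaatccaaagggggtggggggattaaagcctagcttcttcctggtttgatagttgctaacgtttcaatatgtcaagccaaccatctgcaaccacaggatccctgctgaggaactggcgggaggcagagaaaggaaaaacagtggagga

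The loose form, searched on both strands, was the half-site NGGTNA repeated after a gap of 4 bases, and 0.621% of 32851 promoter windows of the same length held it. Windows were found for 7 of the 10 members (none for *Abcg1*, *Apoc1* and *Lpl*), and of these 7 genes *Abca1* held a match, on the strand opposite to the gene, 67 to 52 bases before the start. This pattern was written with the known *Abca1* element in mind, so its presence there is no result. The strict form, AGGTCA repeated after the same gap and by 0.0152% of windows, and the sterol element TCACCCCAC, held by 0.496%, had no match in the windows of the 7 members. CACGTG, held by 6.02% of windows, occurred in the *Abca1* window 147 to 142 bases before the start. A match is a row of letters, not a measured binding site, and many LXR elements lie outside such windows.

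Of the 10 members, 9 passed the filter on low counts, as did 10550 genes in all. *Apoc1*, which encodes a small apolipoprotein, did not pass: it had 1 and 2 counts in the untreated MHCII+CD11c- libraries 1 and 2, 3 counts in replicate 2 of LYVE1+CX3CR1+ macrophages with IC, 14 counts in replicate 2 of MHCII+CD11c+ macrophages with IC, and 0 in the other 14 libraries. Its 14 counts, 11.01 CPM, came from a single library, so no level was given for a group. On chromosome 7 of GRCm38, *Apoc1* (19689480 to 19692659) lies 3584 bases from *Apoe* (19696244 to 19701310), on the same strand.

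Per kilobase of merged exon, a rough scale for setting genes side by side, *Apoe* and *Pltp* had the highest mean levels of the members in each of the 6 groups. Untreated, *Apoe* stood at 2054 ± 433 CPM per kb (SD, n = 3) in MHCII+CD11c-, 1011 ± 125 in MHCII+CD11c+ and 923 ± 99.97 in LYVE1+CX3CR1+ macrophages. *Pltp* stood at 828 ± 78.2, 652 ± 42.6 and 1111 ± 65.2 CPM per kb in the same order. *Abca1* stood at 70.9 ± 15.7, 48.8 ± 8.78 and 77.6 ± 2.98 CPM per kb and *Abca9* at 62.2 ± 2.36, 57.3 ± 2.51 and 61.3 ± 10.3. In MHCII+CD11c+ macrophages *Lpl*, at 53.7 ± 11.3 CPM per kb, lay between these transporters, all 3 within their spread. The merged length, 10478 bases for *Lpl* and 10363 for *Abca1*, joins all annotated exons. It can exceed the transcript present in these cells, so a level per kb may be understated for some genes more than for others. The receptors were lower than *Abca1* and *Abca9*, with *Nr1h2* at 27.8 ± 3.65, 25.5 ± 4.42 and 32.4 ± 1.48 CPM per kb and *Nr1h3* at 6.14 ± 1.37, 2.89 ± 2.32 and 10.4 ± 1.78. *Abcg1* stood at 21.8 ± 9.67, 29.8 ± 3.44 and 16.2 ± 1.56 CPM per kb and *Mylip* at 20.2 ± 4.76, 22.4 ± 4.37 and 27.8 ± 4.94. The mean of *Nr1h2* was above both in MHCII+CD11c- and LYVE1+CX3CR1+ macrophages.

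**Figure D1:**
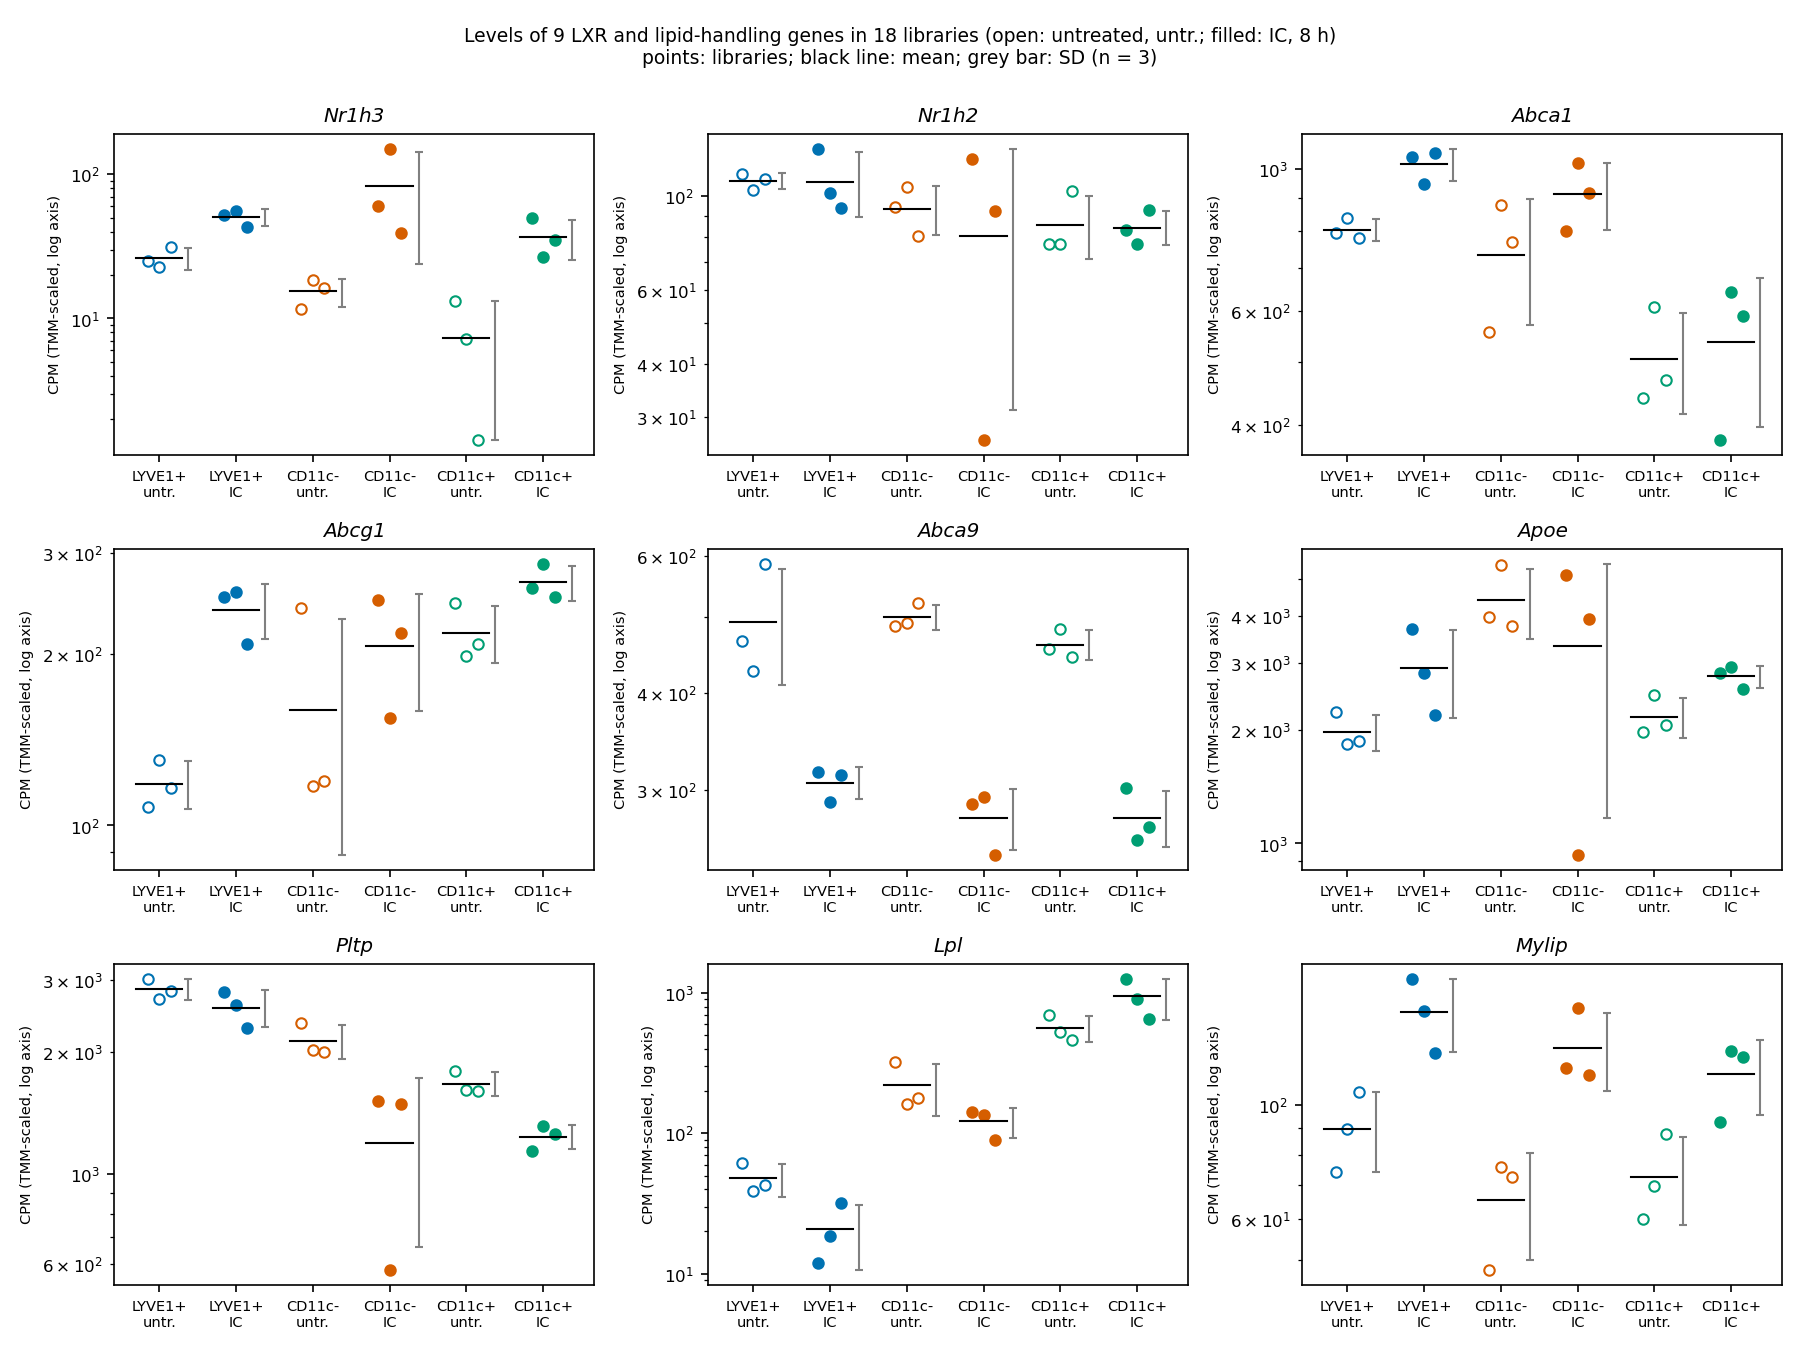
CPM (TMM-scaled, log axis) of the 9 members past the filter in the 18 libraries: 3 points per group, open for untreated and filled for IC, with the mean as a black line and the SD as a grey bar. *Abca9* is lower and *Nr1h3* and *Mylip* are higher in the IC libraries of each subset, and *Lpl* spans from 11.8 CPM in a LYVE1+CX3CR1+ library to 1268 CPM in a MHCII+CD11c+ library.

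To ask how the subsets differ before any challenge, untreated libraries were compared with edgeR's quasi-likelihood test and Benjamini-Hochberg adjustment over all 10550 genes, and a gene was called at an adjusted p under 0.05. The untreated libraries also entered the IC changes by which some members had been chosen. LYVE1+CX3CR1+ macrophages had less *Lpl* and less *Apoe* than MHCII+CD11c- macrophages. Against MHCII+CD11c+ macrophages they had more *Nr1h3*, *Abca1* and *Pltp* and less *Lpl* and *Abcg1*. Between both MHCII+ subsets *Lpl* was called, higher in MHCII+CD11c+ macrophages.

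Of the 9 members tested, 2 were called for LYVE1+CX3CR1+ against MHCII+CD11c- (0 higher and 2 lower), where 11.4% of all genes were called, 4.32% higher and 7.12% lower. For LYVE1+CX3CR1+ against MHCII+CD11c+ it was 5 of 9, 3 higher and 2 lower, against 21.8% of all genes (9.48% and 12.4%). For MHCII+CD11c+ against MHCII+CD11c- it was 1 of 9, higher, against 3.49% (1.89% higher and 1.6% lower). By the looser measure of groups that did not overlap, 4 members (2 higher and 2 lower) stood apart in the first comparison, where 28.9% of all genes did (14.4% higher and 14.6% lower). In the second it was 6 members (4 higher and 2 lower), against 41.3% (19.8% and 21.6%), and in the third 4 members (1 higher and 3 lower), against 22.3% (12.3% and 10%). The median log2 fold change of the 9 members was 0.13, 0.31 and −0.12 in these comparisons, and that of all genes −0.02, −0.02 and −0.01.

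**Figure D2:**
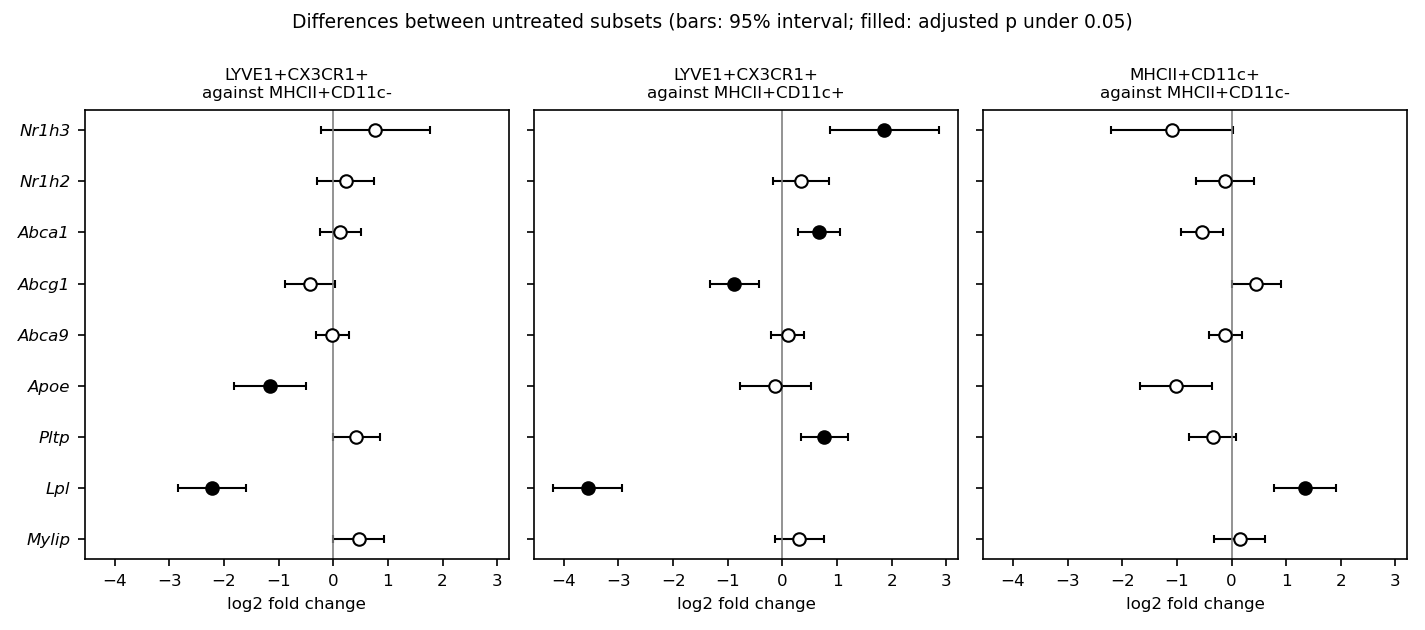
Log2 fold changes of 9 members between untreated subsets, with 95% intervals as bars and filled points for an adjusted p under 0.05 (edgeR, 3 libraries per group). *Lpl* is called in each of the 3 panels, at −2.22, −3.56 and 1.34, and *Abca9* lies near 0 in each.

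*Nr1h3* encodes the LXR that is enriched in macrophages, fat and liver. In untreated LYVE1+CX3CR1+ macrophages its libraries read 24.9, 22.6 and 31.2 CPM, in MHCII+CD11c- macrophages 11.6, 18.3 and 16.3 CPM, and in MHCII+CD11c+ macrophages 13.1, 7.23 and 1.45 CPM. Every LYVE1+CX3CR1+ library was above every library of both MHCII+ subsets, which overlapped each other. The difference was called against MHCII+CD11c+ macrophages (log2 fold change 1.86, SE 0.49, edgeR adjusted p = 0.00572). It was not called against MHCII+CD11c- macrophages (0.77, SE 0.48, edgeR adjusted p = 0.374; 95% interval −0.23 to 1.76). The counts behind the MHCII+CD11c+ values were 25, 11 and 3, and without the library with 3 counts the log2 fold change was 1.34 (edgeR adjusted p = 0.0454), while without MHCII+CD11c+ library 1 it was 2.68 (adjusted p = 0.00106).

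*Nr1h2*, the LXR found in most cell types, differed less. Every LYVE1+CX3CR1+ library was above the MHCII+CD11c+ ones, the closest of them by under 1 CPM, and the other pairs of subsets overlapped. Group means lay between 85.6 ± 14.8 CPM in MHCII+CD11c+ and 109 ± 4.97 CPM in LYVE1+CX3CR1+ macrophages (SD, n = 3), and 0 of 3 comparisons was called (edgeR), of which the widest was LYVE1+CX3CR1+ against MHCII+CD11c+ at 0.34 on the log2 scale (95% interval −0.17 to 0.85). The interval does not show equal levels, since it holds a change of up to 0.85.

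Among the transporters, *Abca1*, which loads cholesterol and phospholipid onto lipid-poor apolipoproteins, read 794, 839 and 779.6 CPM in untreated LYVE1+CX3CR1+ macrophages. It read 557, 878 and 768 CPM in MHCII+CD11c- macrophages and 439, 609 and 469 CPM in MHCII+CD11c+ macrophages. The LYVE1+CX3CR1+ libraries all lay above the MHCII+CD11c+ ones, and the difference was called (0.67, SE 0.18, edgeR adjusted p = 0.00889). Without MHCII+CD11c+ library 1 the adjusted p was 0.0541. MHCII+CD11c- macrophages overlapped both other subsets.

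*Abcg1*, which passes cholesterol to high-density lipoprotein, had the opposite order. Its libraries read 108, 130.4 and 116 CPM in LYVE1+CX3CR1+, 241, 117 and 119.5 CPM in MHCII+CD11c-, and 246, 199 and 208 CPM in MHCII+CD11c+ macrophages. The LYVE1+CX3CR1+ libraries lay below all MHCII+CD11c+ libraries and the difference was called (−0.88, SE 0.22, edgeR adjusted p = 0.00331). Of the MHCII+CD11c- libraries, replicate 1 was the one near the MHCII+CD11c+ values, and it also had the highest neutrophil marker sum of the untreated libraries, 1870 CPM against 777 and 775 CPM in the other two. Without it, *Abcg1* was also called higher in MHCII+CD11c+ than in MHCII+CD11c- macrophages (0.87, edgeR adjusted p = 0.0132), as against 0.45 with it (adjusted p = 0.304). *Abca1* passed the threshold in that fit too, lower in MHCII+CD11c+ macrophages (edgeR adjusted p = 0.0368, against 0.117 with it). Whether RNA of any of these other cells had a part in this was not tested.

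*Abca9*, an ABCA transporter whose cargo is poorly known, had close levels in the untreated subsets. It read 467, 426 and 586 CPM in LYVE1+CX3CR1+, 487, 491 and 522 CPM in MHCII+CD11c-, and 456, 484 and 445 CPM in MHCII+CD11c+ macrophages. The MHCII+CD11c+ libraries lay just below the MHCII+CD11c- ones, and the LYVE1+CX3CR1+ libraries overlapped both. Its 3 differences lay between −0.12 and 0.10 on the log2 scale and 0 of 3 was called (edgeR), with 95% intervals that together ran from −0.42 to 0.39. The gene lies on chromosome 11 of GRCm38 (110100749 to 110168274, minus strand) in a row of related genes, between *Abca8a* and *Abca6*, so reads that match several copies make its counts uncertain. Of these neighbours *Abca5*, *Abca8a* and *Abca8b* did not pass the filter and had group means between 0 and 2.44 CPM.

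*Apoe*, the lipoprotein that macrophages secrete with exported cholesterol, read 3969, 5453 and 3751 CPM in untreated MHCII+CD11c- macrophages. The LYVE1+CX3CR1+ libraries read 2219, 1837 and 1862 CPM and the MHCII+CD11c+ libraries 1964, 2465 and 2054 CPM, so both lay below all MHCII+CD11c- libraries and overlapped each other. LYVE1+CX3CR1+ macrophages were called lower than MHCII+CD11c- macrophages (−1.15, SE 0.32, edgeR adjusted p = 0.0169). That call was lost without MHCII+CD11c- library 2, or LYVE1+CX3CR1+ library 2 or 3 (edgeR adjusted p = 0.0886, 0.0730 and 0.0727). MHCII+CD11c+ against MHCII+CD11c- macrophages missed the threshold (−1.02, SE 0.32, edgeR adjusted p = 0.0770). It passed with the replicate number as a block within treatment (edgeR adjusted p = 0.0382), with only the libraries compared (8.82e-04) and with no filter on low counts (8.75e-08).

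*Pltp* encodes a protein that moves phospholipid between lipoproteins. It read 3025, 2696 and 2814 CPM in LYVE1+CX3CR1+, 2353, 2015 and 1998 CPM in MHCII+CD11c-, and 1795, 1609 and 1604 CPM in MHCII+CD11c+ macrophages. The 3 subsets did not overlap. LYVE1+CX3CR1+ was called higher than MHCII+CD11c+ (0.77, SE 0.21, edgeR adjusted p = 0.00831), while the other 2 differences were 0.42 (adjusted p = 0.230) for LYVE1+CX3CR1+ against MHCII+CD11c- and −0.35 (adjusted p = 0.451) for MHCII+CD11c+ against MHCII+CD11c-.

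*Lpl*, whose enzyme splits triglyceride in lipoproteins, separated the subsets most widely of the 9 members tested. It read 62.0, 38.9 and 42.5 CPM in LYVE1+CX3CR1+, 324, 163 and 179.8 CPM in MHCII+CD11c-, and 694, 531 and 464 CPM in MHCII+CD11c+ macrophages. None of the groups overlapped. All 3 differences were called: −2.22 (SE 0.30, edgeR adjusted p = 1.42e-05) for LYVE1+CX3CR1+ against MHCII+CD11c-, −3.56 (SE 0.31, adjusted p = 2.43e-09) against MHCII+CD11c+, and 1.34 (SE 0.28, adjusted p = 0.00519) for MHCII+CD11c+ against MHCII+CD11c-. The last of these was lost without MHCII+CD11c- library 3 (1.21, edgeR adjusted p = 0.0532). Fat cells also make *Lpl*, and the 8 adipocyte markers summed to at most 15.9 CPM in any library, with 0 of 8 past the filter. Untreated, the sum was 12.8 to 15.9 CPM in MHCII+CD11c-, 1.58 to 4.60 CPM in MHCII+CD11c+ and 0 to 1.08 CPM in LYVE1+CX3CR1+ libraries. The part of fat cells in the levels of *Lpl* and the other genes was not tested.

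*Mylip* did not pass the threshold between any of the untreated subsets. Its group means were 89.9 ± 16.0 CPM in LYVE1+CX3CR1+, 65.3 ± 15.4 in MHCII+CD11c- and 72.4 ± 14.1 in MHCII+CD11c+ cells (SD, n = 3), the libraries overlapped in each pair, and 0 of 3 differences was called (edgeR; 0.46, 0.31 and 0.15 on the log2 scale). The 95% intervals of the 3 differences reached 0.93 at the upper end.

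The second question was how these genes stood 8 h after IC. *Nr1h3* and *Mylip* were higher and *Abca9* was lower in the IC libraries of each subset, with no overlap between the 3 IC and the 3 untreated libraries. *Nr1h2* overlapped in each subset. The other members were not alike in the subsets, and *Lpl* had lower levels with IC in LYVE1+CX3CR1+ and MHCII+CD11c- macrophages and a higher mean in MHCII+CD11c+ macrophages.

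In LYVE1+CX3CR1+ macrophages 4 of 9 members lay higher without overlap (*Nr1h3*, *Abca1*, *Abcg1* and *Mylip*), 2 lower (*Abca9* and *Lpl*) and 3 overlapped, where 9.6% of all genes lay higher and 9.46% lower (19.1% in all). In MHCII+CD11c- macrophages 2 lay higher (*Nr1h3* and *Mylip*), 3 lower (*Abca9*, *Pltp* and *Lpl*) and 4 overlapped, against 5.68% and 8.56% of all genes (14.2% in all). The same 2, 3 and 4 members were found without the smallest library. In MHCII+CD11c+ macrophages 4 lay higher (*Nr1h3*, *Abcg1*, *Apoe* and *Mylip*), 2 lower (*Abca9* and *Pltp*) and 3 overlapped, against 8.51% and 9.94% (18.5% in all). Over all genes, 0.682% lay higher and 0.597% lower in each of the 3 subsets. These counts come from the contrast that helped to choose the members and are not read as a result.

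**Figure D3:**
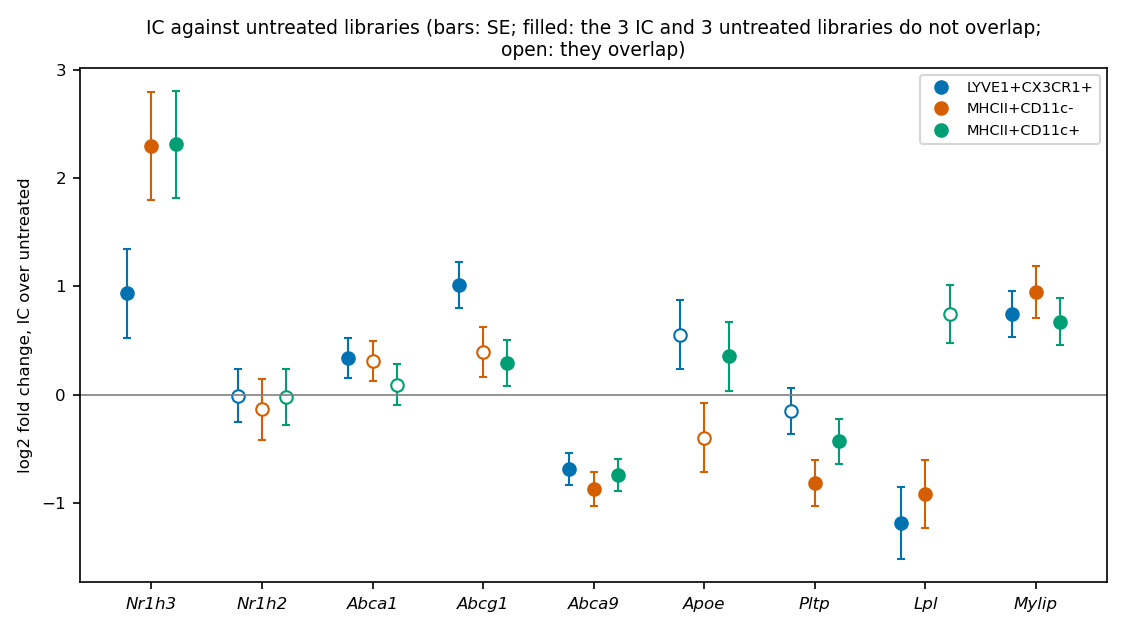
Log2 fold changes of 9 members with IC against untreated libraries in each subset, with the SE as bars. Points are filled where the 3 IC and the 3 untreated libraries do not overlap, and the values run from −1.18 for *Lpl* in LYVE1+CX3CR1+ to 2.31 for *Nr1h3* in MHCII+CD11c+ macrophages.

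With IC, *Nr1h3* read 52.4, 55.9 and 43.2 CPM in LYVE1+CX3CR1+ macrophages, a 1.91-fold higher level by the fit than untreated. In MHCII+CD11c- macrophages it read 60.1, 151 and 39.1 CPM (4.92-fold), and in MHCII+CD11c+ macrophages 49.4, 26.7 and 34.7 CPM (4.96-fold). All 9 IC libraries lay above the highest untreated MHCII+ library, 18.3 CPM. Across subsets they did overlap, since the MHCII+CD11c+ IC library at 26.7 CPM lay below untreated LYVE1+CX3CR1+ library 3, at 31.2 CPM. The value of 151 CPM is that of the smallest library and rests on 40 counts, and without it the log2 fold change in MHCII+CD11c- macrophages was 1.62 in place of 2.30. In MHCII+CD11c+ macrophages it was 1.79 without the untreated library with 3 counts (replicate 3) and 3.13 without untreated replicate 1, in place of 2.31.

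*Nr1h2* means with IC were 108 ± 18.9 CPM in LYVE1+CX3CR1+, 80.5 ± 49.3 in MHCII+CD11c- and 84.3 ± 7.81 in MHCII+CD11c+ cells (SD, n = 3), with log2 fold changes of −0.01, −0.14 and −0.02. The wide spread in MHCII+CD11c- macrophages came from 26.4 CPM (7 counts) in the smallest library, against 123 and 92.1 CPM in the others. Set against each other per kilobase, the 2 receptors differed in balance with and without IC. *Nr1h3* made up 22.5% to 27.5% of their summed level in untreated LYVE1+CX3CR1+ libraries and 35.0% to 42.3% with IC. It made up 14.1% to 21.3% in untreated MHCII+CD11c- libraries and 39.5%, 88.4% and 36.1% with IC, of which 88.4% is the smallest library. In MHCII+CD11c+ macrophages the share was 18.5%, 11.1% and 1.84% untreated and 44.1%, 31.6% and 33.3% with IC.

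**Figure D4:**
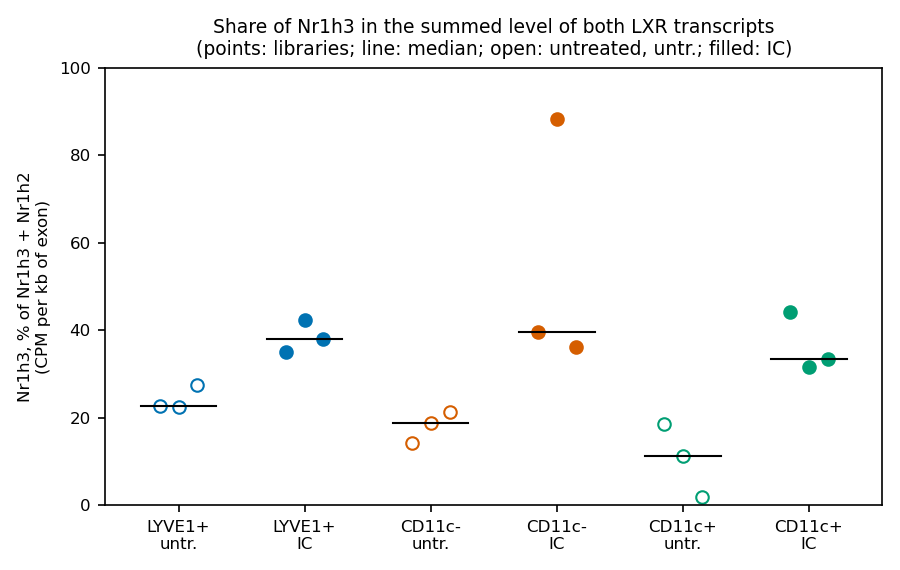
Share of *Nr1h3* in the summed level of *Nr1h3* and *Nr1h2* (percent of CPM per kb of exon) in the 18 libraries, with the median of each group as a line. Untreated libraries lie between 1.84% and 27.5% and IC libraries between 31.6% and 44.1%, except for the smallest library at 88.4%.

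*Abca1* read 1043, 948 and 1057 CPM with IC in LYVE1+CX3CR1+ macrophages, all above the untreated libraries, which was 1.26-fold. In MHCII+CD11c- macrophages it read 800.1, 1020.4 and 916 CPM and in MHCII+CD11c+ macrophages 378, 643 and 590.3 CPM, and both overlapped their untreated libraries (log2 fold changes 0.31 and 0.09). After IC, as before, *Abca1* was lower in every MHCII+CD11c+ library than in any LYVE1+CX3CR1+ library.

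*Abcg1* read 252, 256 and 208 CPM with IC in LYVE1+CX3CR1+ macrophages, 2.02-fold the untreated level. The MHCII+CD11c+ libraries read 261, 288 and 252 CPM, just above the highest untreated one at 246 CPM (1.23-fold). In MHCII+CD11c- macrophages they read 248, 154 and 217 CPM (log2 fold change 0.40) and overlapped the untreated libraries through untreated replicate 1, at 241 CPM. Without it the log2 fold change was 0.81 and all IC libraries lay above the other two, at 117 and 119.5 CPM. The difference between LYVE1+CX3CR1+ and MHCII+CD11c+ macrophages was −0.16 on the log2 scale with IC (SE 0.21, libraries overlapping), against −0.88 untreated.

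*Abca9* was the transporter with lower levels. With IC it read 316, 289.9 and 314 CPM in LYVE1+CX3CR1+, 288, 294 and 247 CPM in MHCII+CD11c-, and 302, 259 and 269 CPM in MHCII+CD11c+ macrophages. Every one of these 9 libraries lay below the lowest untreated library of any subset, 426 CPM. The untreated level was 1.61, 1.83 and 1.67 times the IC level by the fit, and the log2 fold changes were −0.69 (SE 0.15), −0.87 (SE 0.16) and −0.74 (SE 0.15). The IC libraries of the 3 subsets overlapped each other.

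*Mylip* read 175, 152 and 126 CPM with IC in LYVE1+CX3CR1+, 118, 154 and 114 CPM in MHCII+CD11c-, and 92.6, 127 and 124 CPM in MHCII+CD11c+ macrophages. The untreated libraries had read 74.1, 89.6 and 106 CPM, 47.7, 75.8 and 72.5 CPM, and 59.9, 69.7 and 87.8 CPM. The IC level was 1.68-fold, 1.93-fold and 1.59-fold higher. In MHCII+CD11c+ macrophages the gap between the groups was narrow, from 87.8 to 92.6 CPM.

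*Apoe* with IC read 3687, 2829 and 2183 CPM in LYVE1+CX3CR1+ macrophages, of which the last lay within the untreated range (log2 fold change 0.56, SE 0.32). The MHCII+CD11c+ libraries read 2812, 2919 and 2562 CPM, all above the untreated ones (0.36, SE 0.32). The MHCII+CD11c- libraries read 5128, 930.0 and 3919 CPM (−0.40, SE 0.32), and without the smallest library, the one at 930.0 CPM, the log2 fold change was 0.037. No direction can be given for *Apoe* in that subset.

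*Pltp* read 2804, 2611 and 2282 CPM with IC in LYVE1+CX3CR1+ macrophages and overlapped the untreated libraries (−0.15). In MHCII+CD11c- macrophages it read 1514, 579.9 and 1489 CPM and in MHCII+CD11c+ macrophages 1142, 1312 and 1257 CPM, both below their untreated libraries (−0.82 and −0.43). Without the smallest library, at 579.9 CPM, the value for MHCII+CD11c- macrophages was −0.50. With IC, LYVE1+CX3CR1+ macrophages had 1.09 and 1.05 more on the log2 scale than MHCII+CD11c- and MHCII+CD11c+ macrophages, without overlap.

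*Lpl* with IC read 11.8, 18.5 and 31.7 CPM in LYVE1+CX3CR1+ and 141, 136 and 89.1 CPM in MHCII+CD11c- macrophages, all below the untreated libraries, which had 2.27 and 1.89 times the level. In MHCII+CD11c+ macrophages it read 1268, 911 and 658 CPM, and the last of these lay inside the untreated range (1.67-fold by the fit). The 3 subsets did not overlap with IC either. On the log2 scale the *Lpl* difference was 3.002 with IC and 1.34 untreated for MHCII+CD11c+ against MHCII+CD11c- macrophages, and −5.49 with IC and −3.56 untreated for LYVE1+CX3CR1+ against MHCII+CD11c+ macrophages. The highest adipocyte marker sum with IC was 14.2 CPM. With IC, 2 of 9 members (*Pltp* and *Lpl*) stood apart between LYVE1+CX3CR1+ and MHCII+CD11c- macrophages, where 25.1% of all genes did. Between LYVE1+CX3CR1+ and MHCII+CD11c+ macrophages 4 did (*Nr1h2*, *Abca1*, *Pltp* and *Lpl*), against 38% of all genes, and between both MHCII+ subsets 3 did (*Abca1*, *Abcg1* and *Lpl*), against 16.8%. The responses of the subsets were not compared by a test for any member, because the IC contrasts had entered their choice.

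Among themselves, members differed in how alike their log2 CPM ran over the 18 libraries, which share subset, treatment and depth. The highest Pearson correlations were 0.79 for *Nr1h2* with *Pltp* and 0.68 for *Nr1h3* with *Mylip*, and the lowest were −0.84 for *Abca1* with *Lpl* and −0.73 for *Abca9* with *Mylip*. Without the smallest library (17 libraries) these 4 were 0.54, 0.64, −0.87 and −0.71, so that of *Nr1h2* with *Pltp* rests in part on it, and *Pltp* with *Lpl* went from −0.58 to −0.81. Among 4911 other genes, all at a mean log2 CPM of 5 or more, those most like *Nr1h3* were *Msr1* (0.90), *Sdcbp* (0.89) and *Vps35* (0.88). For *Abca1* they were *Slc6a8* (0.91), *Gprc5b* (0.90) and *Mertk* (0.90), for *Abca9* the sterol synthesis gene *Msmo1* (0.82), *Pid1* (0.79) and *Chp2* (0.79), for *Apoe* *Fos* (0.83) and *Dnajb9* (0.80), and for *Lpl* *Olfm1* (0.96), *Glipr2* (0.95) and *Ptprc* (0.95). These correlations are across 18 libraries and describe shared patterns only. Without the smallest library those of *Apoe* were 0.72 and 0.71.

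Around the members, 8 lists of related genes (89 genes without the members, 66 past the filter) were tested across the same fit. The lists were chosen with earlier results of these data known, and the p-values do not allow for that choice. Other LXR targets, such as enzymes of fatty acid synthesis and *Mertk*, a receptor for engulfing dying cells, did not pass the threshold with IC: 0 of 15 were called in each subset by edgeR's quasi-likelihood test and 0 by DESeq2, and 2, 3 and 2 of 15 had an unadjusted p under 0.05 for LYVE1+CX3CR1+, MHCII+CD11c- and MHCII+CD11c+ cells. Over all genes 0.464%, 1.06% and 0.673% were called and 8.71%, 14.6% and 9.48% had an unadjusted p under 0.05, so 0 called of 15 is near the share of all genes and says nothing particular of this list. The medians of the list were 0.03, −0.08 and −0.07 on the log2 scale. LXR partners, PPAR receptors, enzymes that make or remove oxysterol ligands, other ABCA and ABCG transporters, and lipases had 0 called as well in each subset by both tools.

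With IC, few genes of these lists were called. Because of how the lists were chosen, the shares below are a description and are not read as a result. Of the 66 genes 2 were called in LYVE1+CX3CR1+, 1 in MHCII+CD11c- and 1 in MHCII+CD11c+ cells, or 3.03%, 1.52% and 1.52%, where 0.464% (0.246% higher, 0.218% lower), 1.06% (0.55% and 0.512%) and 0.673% (0.483% and 0.19%) of all genes were. *Msr1*, a scavenger receptor for modified lipoproteins, rose in each: from 134 ± 7.98 to 264 ± 16.8 CPM in LYVE1+CX3CR1+ (0.98, edgeR adjusted p = 0.0152), from 80.8 ± 18.7 to 226 ± 22.6 CPM in MHCII+CD11c- (1.47, adjusted p = 0.00104) and from 43.3 ± 3.78 to 135 ± 42.4 CPM in MHCII+CD11c+ macrophages (1.62, adjusted p = 1.30e-04; SD, n = 3). In LYVE1+CX3CR1+ macrophages the *Msr1* call was lost in each of the 6 fits that left out 1 library. The response to IC was not called different between any 2 subsets for any of the 66 genes (0 of 66 by edgeR's test; 3, 8 and 4 had an unadjusted p under 0.05; no other tool was run), and over all genes 0, 1 and 1 were, 0%, 0.00948% and 0.00948%.

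Between untreated subsets, 12 of 66 list genes were called (18.2%, 6 higher and 6 lower) for LYVE1+CX3CR1+ against MHCII+CD11c-, where 11.4% of all genes were (4.32% higher and 7.12% lower). Against MHCII+CD11c+ it was 24 (36.4%, 12 and 12), with 21.8% of all genes (9.48% and 12.4%), and for MHCII+CD11c+ against MHCII+CD11c- it was 4 (6.06%, 2 and 2), with 3.49% of all genes (1.89% and 1.6%). Among the uptake receptors, *Lrp1*, *Msr1* and *Olr1* were higher in LYVE1+CX3CR1+ macrophages than in both MHCII+ subsets and *Cd36* than in MHCII+CD11c+ macrophages. *Lrp1*, for example, stood at 2761 ± 513 CPM against 1526 ± 124 CPM in MHCII+CD11c- and 1130 ± 99.4 CPM in MHCII+CD11c+ cells.

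Of the other LXR targets, *Scd1*, which desaturates fatty acids, was the one called between all pairs: 8.34 ± 0.98 CPM in LYVE1+CX3CR1+, 125 ± 20.7 in MHCII+CD11c- and 49.97 ± 11.5 in MHCII+CD11c+ cells (SD, n = 3). *Lpcat3* and *Arl4c* were higher in LYVE1+CX3CR1+ macrophages than in both MHCII+ subsets. Against MHCII+CD11c+ macrophages they also had more *Mertk* and *Npc1* and less *Fasn*, *Elovl5* and *Cd5l*. *Cd5l* had 3 counts or fewer in each LYVE1+CX3CR1+ library and was at least 6.29-fold lower, or 2.44-fold without MHCII+CD11c+ library 1, without which its call was also lost. *Elovl5* was higher in MHCII+CD11c+ than in MHCII+CD11c- macrophages. The coregulator *Nrip1* was higher in LYVE1+CX3CR1+ macrophages than in both, and *Ncoa3* than in MHCII+CD11c+ macrophages.

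The nuclear receptor gene *Pparg* was lower in LYVE1+CX3CR1+ than in MHCII+CD11c+ macrophages (2.48 ± 0.78 against 12.9 ± 2.99 CPM), as was *Cyp27a1*, which makes an oxysterol. The call of *Cyp27a1* was lost in each of the 6 fits that left out 1 library and with no filter, and that of *Pparg* in 3 of the 6. *Msr1* was lower in MHCII+CD11c+ than in MHCII+CD11c- macrophages. Of the transporters, *Abcg3* was lower in LYVE1+CX3CR1+ macrophages than in both MHCII+ subsets (4.44 ± 2.82 against 42.5 ± 6.13 and 59.4 ± 21.3 CPM). *Abca6*, the neighbour of *Abca9*, had 3 counts or fewer in each untreated LYVE1+CX3CR1+ library and was at least 7.82-fold and 18.3-fold lower there than in MHCII+CD11c- and MHCII+CD11c+ cells, and *Abca13* at least 5.47-fold lower than in MHCII+CD11c- macrophages. For *Abca6* the bounds were 5.75-fold without MHCII+CD11c- library 2 and 15.2-fold without MHCII+CD11c+ library 3. For *Abca13* the bound was 2.83-fold without MHCII+CD11c- library 1, and its call was lost in 5 of the 6 fits that left out 1 library. The fatty acid binding protein genes *Fabp5* and *Fabp4* were lower in LYVE1+CX3CR1+ than in both MHCII+ subsets, *Fabp4* by at least 6.53-fold and 3.87-fold. The *Fabp4* bounds were 5.38-fold without MHCII+CD11c- library 1 and 2.80-fold without MHCII+CD11c+ library 1. Against MHCII+CD11c+ macrophages, *Plin2*, a lipid droplet coat gene, was higher and *Plin3* lower.

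These calls were edgeR adjusted p under 0.05. Of the 12, 24 and 4 calls, 6, 12 and 0 held in all fits that left out 1 library of the comparison, and over every alternative run the highest adjusted p was 0.211 (*Abca13*), 0.302 (*Cd5l*) and 0.193 (*Elovl5*). Among the calls held throughout were those of *Scd1*, *Arl4c*, *Abca6*, *Abcg3*, *Fabp4* and *Fabp5* in both comparisons of LYVE1+CX3CR1+ macrophages, and of *Lrp1*, *Cd36*, *Msr1* and *Olr1* against MHCII+CD11c+ macrophages.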

How the data were processed

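RNA of sorted macrophages was sequenced with a stranded total RNA kit. The authors removed adapters and poor bases with Trim Galore, used HISAT2 and the mouse build mm10 (GRCm38) for alignment, summed reads per gene with featureCounts, and deposited the raw counts by gene symbol. Versions, annotation and strand setting are not given in the sources used here, so values of genes that overlap, lie antisense or have close copies are uncertain. Nothing was normalized before deposit. A combined table held the same counts and was not used.

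TMM factors, CPM and log2 CPM (prior count 2) came from edgeR 4.0.16 (R 4.3.3), and 10550 genes passed its filterByExpr step, set to a minimum count of 10 and a minimum total of 15. Groups, taken from the sample titles, were compared with edgeR's quasi-likelihood test in 1 fit of 18 libraries and 6 groups, with Benjamini-Hochberg adjustment over all genes and a threshold of 0.05. The SE was the log2 fold change divided by the square root of F. A gene with 3 counts or fewer in each library of a group was taken to be at the floor, and folds against it, computed from the mean floor of those libraries, are lower bounds. Exon lengths came from GENCODE M21, coordinates and promoters from RefSeq (GRCm38.p6), matched by symbol. The tests were first run on simulated counts.

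Alternatives were DESeq2 1.42.0 (its size factors alone and its own test), no filter, at least 10 counts in every library, only the libraries compared, the replicate number as a block, 1 surrogate variable (sva 3.50.0) and each library left out. Leaving out the smallest library from the overlap counts and correlations, and the highest library from lower bounds, was added after seeing the data. Members and lists were chosen with earlier results of these data known. The genes named are the members; in each list and comparison every gene called where 8 or fewer were; and the 3 most correlated genes for 5 members. Some genes that this rule takes are counted but not reported here by name. *Abca5*, *Abca8a* and *Abca8b* were named after their values were seen. Replicates of a group differed by more than sampling noise (smallest chi-square per gene 3.42). Because the libraries are pools of mice, p-values measure the spread between pools. Floors cover counting error only.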

Additional observations from a re-analysis of the deposited data

How the results depend on the processing

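The labels do not say whether libraries with the same replicate number came from the same mice, and the main fit did not pair them. Correlations of same-numbered libraries in their deviations from the group means lay between −0.05 and 0.13 among untreated subsets and between 0.01 and 0.09 among IC subsets. Those of other pairs lay between −0.13 and 0.08 and between −0.08 and 0.03. In 28 of 36 cases a library correlated best with its own number in another subset of the same treatment, so a pairing within treatment is possible. With the replicate block, the members called stayed at 2 for LYVE1+CX3CR1+ against MHCII+CD11c-, 5 against MHCII+CD11c+ and 1 for MHCII+CD11c+ against MHCII+CD11c-, and the list genes called were 12, 23 and 4 there and 2, 1 and 1 with IC. With the block within treatment, 2 members were called for MHCII+CD11c+ against MHCII+CD11c-, *Apoe* in addition to *Lpl* (edgeR adjusted p = 0.0382).

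The counts of the report stand in square brackets. Members called for MHCII+CD11c+ against MHCII+CD11c- [1] numbered 2 with no filter and 2 with only the libraries compared, *Apoe* in addition in both. Leaving out 1 library gave 1 to 2 members for LYVE1+CX3CR1+ against MHCII+CD11c- [2], 4 to 5 against MHCII+CD11c+ [5] and 0 to 3 for MHCII+CD11c+ against MHCII+CD11c- [1]. *Pltp* was called higher in LYVE1+CX3CR1+ than in MHCII+CD11c- macrophages when only those libraries were fitted (edgeR adjusted p = 0.0176). When a gene needed 10 counts or more in each library, the list genes called were 5, 11 and 2 between untreated subsets [12, 24 and 4] and 3 and 2 with IC in MHCII+CD11c- and MHCII+CD11c+ macrophages [1 and 1]. That setting tests fewer genes. They were 4 and 4 with DESeq2 in these 2 subsets, 5, 6 and 5 with no filter in LYVE1+CX3CR1+ [2], MHCII+CD11c- and MHCII+CD11c+ macrophages, 5 and 4 with only the libraries compared in LYVE1+CX3CR1+ and MHCII+CD11c+ macrophages, and 2 with 1 surrogate variable in MHCII+CD11c- macrophages and in MHCII+CD11c+ against MHCII+CD11c- untreated. Leaving out 1 library gave 6 to 11, 15 to 20 and 0 to 4 list genes between untreated subsets and 1 to 2, 1 to 2 and 1 with IC. The causes were not tested.

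Differences between untreated subsets that turned under some alternative were the following, none of them called in the report. For LYVE1+CX3CR1+ against MHCII+CD11c-, *Abca9* was 0.027 with no filter, 0.050 with 1 surrogate variable and −0.16 to 0.085 without 1 library, *Abca1* −0.026 to 0.28 and *Abcg1* −0.60 to 0.0026. For LYVE1+CX3CR1+ against MHCII+CD11c+, *Abca9* was −0.035 to 0.21, and *Mylip* for MHCII+CD11c+ against MHCII+CD11c- was −0.036 to 0.28. With 1 surrogate variable the IC change of *Nr1h3* in MHCII+CD11c- was 1.56, and those of *Apoe* and *Pltp* in MHCII+CD11c+ macrophages were 0.53 and −0.21. IC changes that turned under an alternative were those of *Nr1h2* (up to 0.087 in LYVE1+CX3CR1+, 0.17 in MHCII+CD11c- and 0.13 in MHCII+CD11c+ cells), *Apoe* in MHCII+CD11c- (0.037 without the smallest library) and *Abca1* in MHCII+CD11c+ macrophages (−0.069 without IC library 2). The small library of MHCII+CD11c- macrophages with IC limits values there, since its floor of 3 counts was 11.3 CPM.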
